A study of Anthurium andraeanum with 18 samples.

Results

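The comparison is the last cooling step in leaves of Oregon, a cultivar of Anthurium andraeanum, an evergreen aroid of warm forests: 3 libraries from plants sampled at 4 °C against 3 libraries from plants sampled at 6 °C. These 6 libraries are members of a series of 18, which holds the cultivars Oregon and Fantasy love with 3 libraries for each of 25, 6 and 4 °C. The plants were in full flower and received 12 h of light per day. Cooling began with 3 days at 15 °C. The 6 °C group was sampled after a further 3 days at 6 °C, and the 4 °C group after those days and 3 more at 4 °C. Colder air and 3 further days in the cold therefore cannot be told apart. No transgene, mutation or added agent is named for any group. The design text speaks of separate experimental runs with several biological replicates in each, but not of how these became the 3 libraries of a group or whether a library is 1 plant or a pool. P-values therefore measure the spread between these samples. The 25 °C controls are marked 0 days in 1 label and, for Oregon, 3 days in the titles.

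The features are transcript groups of an assembly made without a genome, called genes here. By the rule that defines the comparison, rows whose protein name comes from human, mouse, cattle or rat were left out, which left 130644 of 132108 rows. Of these 50909 were expressed enough to be tested and 15621 of the tested genes carried a protein name. A name marks the most similar known protein, often of another plant, and several genes can share 1 name.

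Chilling slows the enzymes that use absorbed light, so the leaf of a warm-climate plant at low temperature absorbs more light energy than it can spend. Leaves lower the antenna that collects light, raise proteins that protect pigments and membranes, and change hormones that govern growth and defence. Jasmonate, made from membrane fatty acids in the chloroplast and peroxisome, and abscisic acid, made from carotenoids, are among the hormones known to respond to cold and water stress. Aquaporins, the water channels of the plasma membrane and the vacuole, are also known to respond to chilling.

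The 6 libraries held 16049383 to 21911024 estimated counts, with 88757 to 98534 rows detected at the lowest and highest. The first principal component of the 6 libraries, with 45.99% of the variance, separated the temperatures, and the second, with 18.07%, set replicate 1 at 4 °C apart from the other two. Rubisco small chain RBCS (DN57201_c1_g3), a leaf mesophyll protein, was listed at 5216 to 5742 CPM (counts scaled to a common library size) at 6 °C and 7223 to 10735 CPM at 4 °C. No other organ was sampled in the series, so the leaf label itself was not tested. The 26 guard cell marker rows, 21 of them tested, summed to 447 to 505 CPM at 6 °C and 435 to 495 CPM at 4 °C. The 8 epidermis and trichome marker rows, 7 of them tested and 1 called lower at 4 °C, summed to 74 to 88.5 and 75.5 to 91.2 CPM. The 11 phloem marker rows, 9 of them tested, summed to 164 to 209 and 209 to 255 CPM. The 18 xylem marker rows, 17 of them tested, summed to 192 to 207 and 188 to 283 CPM. The median log2 fold change of the tested xylem genes was 1.59, and none of them was called. In bulk leaf RNA, fewer cells of a type and less RNA per cell cannot be told apart.

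Some rows named after animals moved with the temperature. Rows named after the 4 mammals of the rule took 2.42 to 2.45% of counts at 6 °C and 2.47, 2.81 and 3.1% at 4 °C, and 82 of their 761 tested rows were called higher at 4 °C and 4 lower. Beyond the rule, 275 tested rows were named after other vertebrates or animal viruses, such as beta-2-microglobulin (B2M, DN48262_c1_g7). Of these 12 (4.36%) were called higher, all past log2 3, and 4 lower. Another 168 tested rows had a Citrus protein as the hit in the table's other name column. Of these 12 (7.14%) were called higher, 11 of them past log2 3, and 3 lower. Their shares of counts overlapped between the groups. They were 0.923 to 0.981% at 6 °C and 0.958 to 1.07% at 4 °C for other vertebrates and animal viruses. For Citrus they were 0.326 to 0.351% and 0.322 to 0.35%. The rises past log2 3 among these rows were low, with means of 0.994 to 5.65 CPM at 4 °C. Among the 26 protein-named rises past log2 3 they made up 19. The part of all rows named after other vertebrates, animal viruses or Citrus in the other results was not tested. Without them 364 genes in place of 388 were called higher and 671 in place of 678 lower.

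Calls required an adjusted p (edgeR's quasi-likelihood test, Benjamini-Hochberg adjustment over the whole table) below 0.05 together with a change of at least 2-fold. In Oregon 388 genes were higher at 4 °C (0.762% of those tested) and 678 were lower (1.33%), which is 2.09% in either direction. The falls were also deeper: the median log2 fold change was 1.42 among the called rises and -2.06 among the called falls, and 354 falls against 110 rises passed 4-fold (log2 2). The median over all tested genes was 0.00. Among genes with a protein name, 235 rose (1.5%) and 392 fell (2.51%), or 4.01% in all, and these are the backgrounds for the gene lists below. An unadjusted p below 0.05 was reached by 7203 genes (14.1%), 3247 of them higher and 3956 lower.

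**Figure D1:**
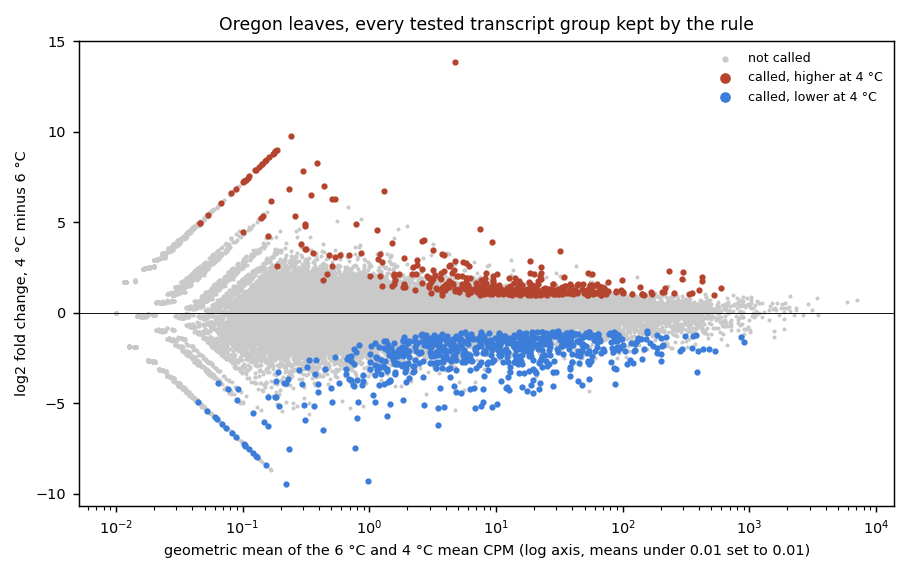
Each point is 1 of 50909 tested genes, with the geometric mean of its 6 °C and 4 °C levels in CPM on a log axis against its fitted log2 fold change, 4 °C minus 6 °C. The 388 called rises lie mostly near log2 1 to 2, and the 678 called falls reach further from 0. The diagonal lines at the left are genes with few or no counts in 1 group.

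The counts depended on single libraries. Without replicate 3 at 4 °C, 71 genes were called higher and 109 lower. Without replicate 2 at 6 °C the counts were 80 and 163, and without replicate 1 at 6 °C they were 106 and 239. Without replicate 2 at 4 °C they were 208 and 262, and without replicate 1 at 4 °C the lower count was 458 and the higher 303. Without replicate 3 at 6 °C they were 255 and 466, and without replicate 2 of Fantasy love at 6 °C, which is in neither group compared but bears on the shared spread, the scaling and the filter (59780 genes tested), they were 721 and 1417. Of the 105 genes named by rule that were called, 36 kept the call in each of these 7 fits. Of the genes described below, ELIP1, WAK3, GLR2.9 and HTH lost it in 5 of the fits, LAX3 in 6, and CIA2 and CA2 in 4. GUN4, psbB, FAD4, PRR95, CYP75B1 and TIP1-1 lost it in 3. The fit without replicate 3 at 4 °C was among those that lost each of these 13 genes. Called genes outside the naming rule, such as AOC, TIFY10B, PYL4, PIP1-2, STP13 and CCA1, were not followed singly through these fits.

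**Figure D2:**
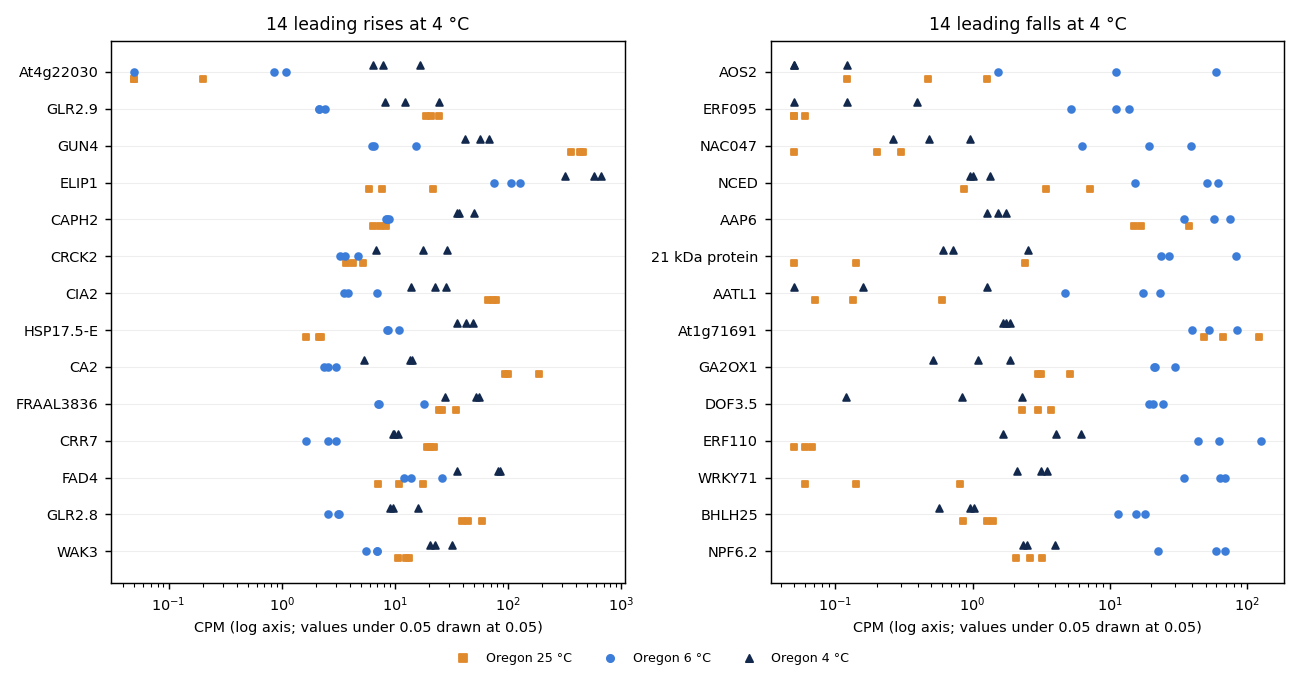
Levels in CPM on a log axis in each library of Oregon at 25, 6 and 4 °C for 14 rises and 14 falls, the leading ones by fold of the called genes with a protein name, at least 10 CPM in the higher group and no overlap between the 6 °C and 4 °C libraries. Most of the 14 falls shown stood high at 6 °C and had low levels at both 25 °C and 4 °C.

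Some chlorophyll and light-harvesting genes rose between 6 and 4 °C from the low levels they had at 6 °C. GUN4 (DN45010_c1_g4), which binds chlorophyll precursors and aids the magnesium chelatase, had 6.27, 6.57 and 15.4 CPM at 6 °C and 41.2, 56.4 and 67.3 CPM at 4 °C. Every 4 °C library lay above every 6 °C library, and the log2 fold change was 2.54 ± 0.53 (SE; adjusted p = 0.0144), while the mean at 25 °C was 416 CPM. CHLI (DN32511_c0_g1), a subunit of that chelatase, went from 22.6, 23.6 and 28.9 CPM to 50.7, 61.9 and 66.9 CPM (log2 fold change 1.26 ± 0.19, adjusted p = 0.00236). Together with PTC52 and GSA, which act in the same pathway's chloroplast steps, 3 of the 30 tested members of the chlorophyll synthesis list were called higher and none lower, with a list median of 0.32. GUN4 itself carries a name outside that list's words. In the chlorophyll breakdown list 1 of 19 tested genes was called higher and none lower, while the median was -0.70. The call, CLH2 (DN54755_c2_g4), rose from a mean of 4.04 to 14.1 CPM and was lost in 6 of the 7 fits without 1 library. That list summed to 1609 to 2243 CPM at 6 °C and 1009 to 1178 CPM at 4 °C.

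In the antenna list, 3 of 15 tested genes rose and none fell, with a median of 0.46. A chlorophyll a-b binding protein (DN41671_c0_g4) had 12.5, 10.4 and 12.3 CPM at 6 °C and 50.6, 33 and 47.2 CPM at 4 °C, which is 3.72-fold higher (adjusted p = 0.00166). The photosystem I antenna gene CAB6A (DN36170_c0_g4) rose from a mean of 45.2 to 111 CPM, and CAB8 (DN55657_c0_g1) from 42.3 to 138 CPM. These levels stayed far from those at 25 °C, where the same 3 genes had means of 791, 7439 and 9335 CPM. The summed antenna list stood at 399 to 538 CPM at 6 °C and 600 to 844 CPM at 4 °C (exact permutation p = 0.1, two-sided, the smallest that 3 against 3 libraries can give).

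Some genes of the chloroplast's own machinery rose as well. Of 50 tested chloroplast ribosomal proteins 4 were called higher and none lower, and the list's median was 0.58, with 43 members above 0. RPL15 (DN36174_c0_g1) had 61.5, 59.6 and 67.6 CPM at 6 °C and 148, 141 and 162 CPM at 4 °C (log2 fold change 1.26 ± 0.17, adjusted p = 0.00106). Elongation factor tsf (DN53097_c0_g4), a translation factor of the bacterial type, rose from a mean of 33.7 to 85.6 CPM, and RH3 (DN50929_c1_g1), an RNA helicase of the chloroplast, from 241 to 525 CPM. CIA2 (DN52836_c2_g1), a transcription factor for chloroplast protein import genes in Arabidopsis, rose from 3.53, 3.85 and 7.01 CPM to 13.8, 22.6 and 28 CPM (adjusted p = 0.0259).

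Of 53 tested genes named as chloroplast-encoded 4 were called higher and none lower (median 0.28), among them psbB (DN49269_c2_g5), a core subunit of photosystem II. It had 38.2, 49.4 and 46.7 CPM at 6 °C and 83, 92.9 and 168 CPM at 4 °C. Among 46 nuclear photosystem and electron transport genes, 4 were higher and none lower (median 0.39), but 1 of the 4, PSBR (DN57902_c0_g1), is a low row with a Citrus hit. PSBP (DN35016_c0_g4), of the oxygen-evolving complex, rose from 9.06, 7.87 and 11.2 CPM to 27.2, 23.9 and 30.7 CPM (log2 fold change 1.54 ± 0.22, adjusted p = 0.0012). CRR7 (DN39234_c1_g4), needed in Arabidopsis for the chloroplast NADH dehydrogenase-like complex, went from a mean of 2.4 to 10 CPM. In the Calvin cycle list the median was 0.52, but the only called gene of its 30, RBCS (DN58869_c0_g1), is again a row with a Citrus hit that had 0 counts at 6 °C.

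A few genes for protection against light and oxidants rose. ELIP1 (DN44614_c2_g1), an early light-induced protein that binds pigments when light is in excess, had 107, 75.1 and 127 CPM at 6 °C and 317, 574 and 667 CPM at 4 °C. Its log2 fold change was 2.33 ± 0.59 (adjusted p = 0.0414). In Oregon its mean at 25 °C was 11.7 CPM, so unlike the antenna genes it was lowest in the warm there. Fantasy love had the reverse order for ELIP1, with means of 739, 252 and 187 CPM at 25, 6 and 4 °C. The beta-carotene hydroxylase gene named CA2 (DN39799_c0_g3), an enzyme of xanthophyll synthesis, rose from a mean of 2.65 to 11 CPM (adjusted p = 0.0141). APX8 (DN38778_c3_g1), a chloroplast ascorbate peroxidase, went from 7.36, 6.96 and 8.58 CPM to 19.1, 17 and 19.6 CPM. FTSH2 (DN55590_c1_g1), a protease that removes damaged photosystem II protein, rose from a mean of 174 to 368 CPM. Of 125 genes for catalases, superoxide dismutases and the ascorbate and glutathione cycle 5 were higher and 1 lower (median 0.20), 1 of the 5 being a catalase row with a Citrus hit. Of 26 glutathione S-transferases 3 were higher and none lower, with a median of 0.03.

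Fatty acid desaturation, which keeps membranes fluid in the cold, moved both ways. FAD4 (DN43427_c0_g3), the desaturase of chloroplast phosphatidylglycerol in Arabidopsis, had 14, 12 and 25.9 CPM at 6 °C and 35.2, 85.4 and 82.1 CPM at 4 °C (log2 fold change 1.96 ± 0.38, adjusted p = 0.0103). FAD7 (DN57008_c1_g1), an omega-3 desaturase of the chloroplast, went the other way, from 154, 167 and 108 CPM to 34.9, 11.5 and 14.8 CPM (log2 fold change -2.81 ± 0.45, adjusted p = 0.00277). Of 23 tested desaturases 1 rose and 3 fell, with a median of -0.94. MGD (DN54707_c0_g1), which makes the main galactolipid of chloroplast membranes, fell from a mean of 212 to 82 CPM.

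Classical cold and heat stress lists held few calls at this step. At the background of 4.01% of named genes, lists this short would also hold few. Of 9 tested CBF, DREB and ICE1 genes, regulators of cold acclimation, none was called (median -0.31), and of 24 heat stress factors none was called. DESeq2's Wald test called 1 of the former higher and 1 of the latter lower. Among 31 small heat shock proteins, which hold unfolding proteins in solution, HSP17.5-E (DN45800_c0_g1) was the 1 call, with 8.58, 8.66 and 10.9 CPM at 6 °C and 42.2, 35.1 and 48.6 CPM at 4 °C (log2 fold change 2.16 ± 0.33, adjusted p = 0.00191). Of these 31 genes 29 had a positive log2 fold change, with a median of 0.45. HSP23.6 (DN46798_c1_g4), a mitochondrial small heat shock protein among the 10 highest genes, had 3066, 2142 and 2537 CPM at 6 °C and 4322, 4373 and 5154 CPM at 4 °C, without passing the test (adjusted p = 0.422). The 1 call among 11 dehydrin and LEA genes, LEA5, has a Citrus hit, and all 3 calls among the cytosolic ribosomal proteins are named after other vertebrates. RFS (DN48583_c0_g2), which makes raffinose, a protective sugar, fell from 476, 182 and 182 CPM to 51.2, 45.7 and 43.1 CPM (adjusted p = 0.00693).

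Calls among genes of jasmonate synthesis were all falls. Of 41 tested members 9 were called lower and none higher, 25 had all 4 °C libraries below all 6 °C libraries (background among named genes 20.3%), and the median was -1.04. LOX3.1 (DN53852_c0_g1), the lipoxygenase at the pathway's start, had 227, 285 and 113 CPM at 6 °C and 41.2, 26.6 and 25.6 CPM at 4 °C (log2 fold change -2.74 ± 0.40, adjusted p = 0.00166). Allene oxide synthase AOS2 (DN34149_c0_g1), the next enzyme, had 11.2, 59.6 and 1.53 CPM at 6 °C and 0.121, 0 and 0 CPM at 4 °C. Counts at 4 °C were so few that the ratio, 743-fold higher at 6 °C, has a 95% counting interval of 205 to 6142.

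Allene oxide cyclase AOC (DN53114_c0_g1), which follows, had 260, 360 and 163 CPM at 6 °C and 56, 12.8 and 22.3 CPM at 4 °C (log2 fold change -3.11 ± 0.51, adjusted p = 0.00358). OPR7 (DN42961_c0_g2), the reductase of the peroxisomal part, fell from a mean of 220 to 109 CPM. TIFY10B (DN44654_c0_g2), a repressor that jasmonate itself induces, had 359, 393 and 233 CPM at 6 °C and 166, 38.1 and 76 CPM at 4 °C (adjusted p = 0.0499). Replicate 1 at 4 °C was the highest of its group for AOS2, AOC, OPR7 and TIFY10B, and replicate 3 at 6 °C the lowest of its group for the same genes, yet the groups did not overlap. In Oregon at 25 °C the means of LOX3.1, AOC, OPR7 and TIFY10B were 56.9, 10.7, 38 and 3.76 CPM.

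Calls in the list of abscisic acid synthesis, sensing and PP2C genes went in both directions. Both rows of NCED, the carotenoid-cleaving enzyme that limits abscisic acid synthesis, fell: DN38179_c0_g1 had 50.9, 61.7 and 15.2 CPM at 6 °C and 0.966, 1.35 and 1.01 CPM at 4 °C (log2 fold change -5.24 ± 0.76, adjusted p = 0.00161). The receptor PYL4 (DN32491_c1_g9) fell from 113, 95.1 and 87.1 CPM to 22.3, 34.8 and 13.5 CPM, and CYP707A7 (DN52750_c3_g1), which breaks abscisic acid down, from a mean of 18.2 to 5.38 CPM. ATHB-7 (DN54888_c0_g5), an abscisic acid-induced HD-Zip factor in Arabidopsis, fell from a mean of 65.7 to 8.2 CPM. The 3 rises in the list of 88 genes were protein phosphatases of the PP2C family, of which Os02g0799000 (DN49777_c1_g2) went from 73.7, 66 and 113 CPM to 184, 212 and 284 CPM (adjusted p = 0.0292). These phosphatases entered the list by their family name, and their part in abscisic acid signalling was not tested. The list held 3 rises and 4 falls in all, with a median of -0.07.

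Calls in the growth hormone list, made from words in protein names, were all falls. Brassinosteroid enzymes named as cytochrome P450 lie outside this list, CYP90B1 with a fall and CYP85A1 with a rise. Of 88 gibberellin, brassinosteroid and cytokinin genes 13 were called lower and none higher (median -0.70). In the lower direction 47 of the 88 did not overlap (background among named genes 20.3%). GA2OX1 (DN42019_c1_g1), which inactivates gibberellin, had 21.3, 30.1 and 21 CPM at 6 °C and 1.87, 0.518 and 1.1 CPM at 4 °C (log2 fold change -4.40 ± 0.79, adjusted p = 0.00641). The DELLA growth repressor D8 (DN41075_c0_g3) fell from 31.6, 41.7 and 41.1 CPM to 10.3, 11.7 and 11.6 CPM (adjusted p = 0.000633), and a second DELLA gene, RHT1, from a mean of 40.2 to 12.2 CPM. LOG1 (DN50600_c2_g1), which activates cytokinin, fell from a mean of 230 to 85.8 CPM. The 13 falls thus include growth repressors and an enzyme of hormone inactivation as well as enzymes of hormone activation.

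Of 29 ethylene genes 6 fell and none rose (median -0.83), among them EBF1 (DN54700_c2_g2), an F-box protein that removes the pathway's main transcription factor. It had 159, 141 and 119 CPM at 6 °C and 39.6, 33.8 and 30.3 CPM at 4 °C (log2 fold change -2.01 ± 0.26, adjusted p = 0.000686). Of 128 auxin genes 7 fell and none rose (median -0.17). IAA7 (DN45996_c0_g1), an auxin response repressor, fell from 72.1, 102 and 99.4 CPM to 29.9, 15.3 and 18.8 CPM (adjusted p = 0.00055).

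Aquaporins had the largest share of falls of the lists with 10 or more tested genes. Of 35 tested members 10 were called lower and none higher, with a median of -1.18. In the lower direction 23 of the 35 did not overlap (background among named genes 20.3%). The summed list stood at 3469, 3313 and 3026 CPM at 6 °C and at 1771, 1070 and 1498 CPM at 4 °C (exact permutation p = 0.1, the smallest possible). TIP2-1 (DN32593_c0_g2), a channel of the vacuole, had 78.7, 47.8 and 62.5 CPM at 6 °C and 11.9, 7.81 and 10 CPM at 4 °C (log2 fold change -2.67 ± 0.29, adjusted p = 0.000209). PIP1-2 (DN50258_c0_g1), a channel of the plasma membrane, fell from 598, 576 and 502 CPM to 297, 169 and 237 CPM (adjusted p = 0.00943).

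Some transporters for sugars, amino acids and ions fell, while most members of these lists were not called. STP13 (DN57281_c1_g1), a hexose importer, had 1130, 1416 and 803 CPM at 6 °C and 338, 245 and 194 CPM at 4 °C, and a mean of 16.8 CPM at 25 °C. Its log2 fold change was -2.11 ± 0.51 (adjusted p = 0.0308), and 6 of the 75 tested genes of sucrose metabolism and sugar transport fell while none rose, with a list median of -0.05. PLT1 (DN55761_c0_g1), a putative polyol transporter, fell from 390, 419 and 345 CPM to 124, 106 and 113 CPM (adjusted p = 0.000296). AAP6 (DN52481_c0_g2), an amino acid permease, fell from 57.6, 75.2 and 34.9 CPM to 1.27, 1.75 and 1.53 CPM (log2 fold change -5.19 ± 0.66, adjusted p = 0.000679). Nitrate reductase NIA1 (DN54081_c2_g1) fell from 118, 157 and 110 CPM to 18.2, 8.61 and 7.58 CPM, and 8 of 81 nitrogen genes fell with none higher (median -0.48). HAK5 (DN41670_c0_g3), a potassium importer, fell from 122, 126 and 89.3 CPM to 12.3, 13.1 and 13.9 CPM (adjusted p = 0.0082), and 8 of 133 ion transporters fell while 2 rose (median -0.27).

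**Figure D3:**
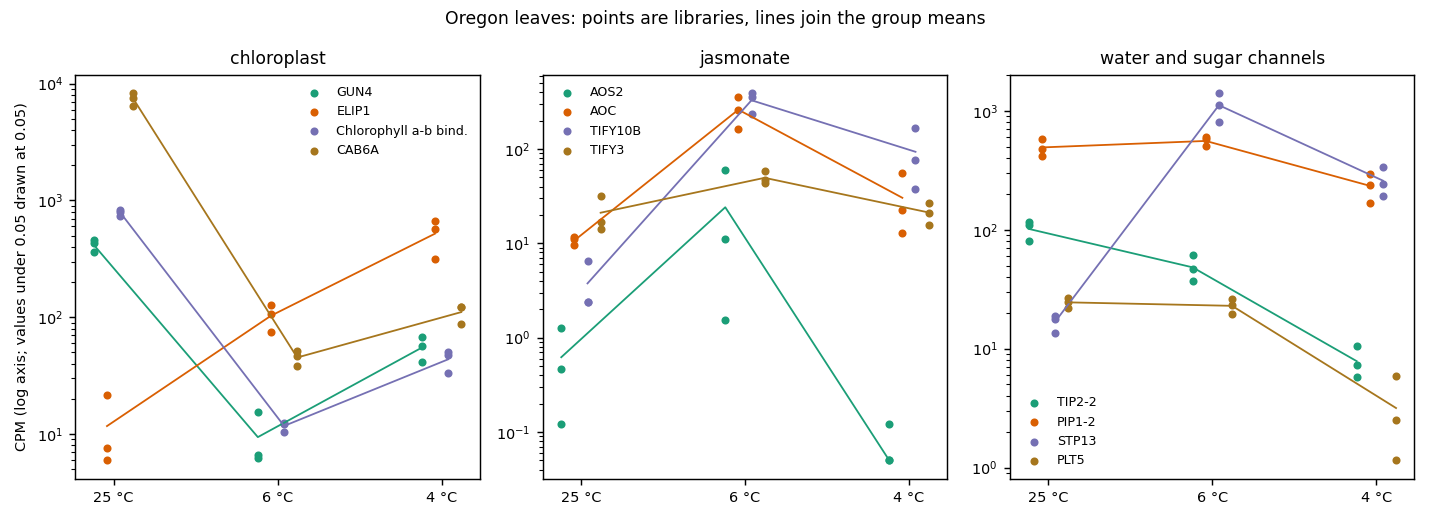
Levels in CPM on a log axis at 25, 6 and 4 °C in Oregon for 12 genes of the text, chosen with their values known: 4 chloroplast genes, 4 jasmonate genes and 4 genes of water and sugar transport. Points are libraries and lines join the group means, and since CPM is not scaled to length, only the levels of 1 gene should be compared. GUN4 and the antenna genes fall steeply to 6 °C and recover in part at 4 °C, while the jasmonate genes peak at 6 °C.

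Calls among NAC and WRKY transcription factors were all falls, in a minority of each family. NAC029 (DN53939_c0_g2) had 67.5, 98.4 and 107 CPM at 6 °C and 10.2, 11.3 and 7.49 CPM at 4 °C. It had the lowest adjusted p among the named genes with a protein name, 8.28e-07, with a log2 fold change of -3.24 ± 0.23, and its mean at 25 °C was 55.4 CPM. WRKY6 (DN39331_c0_g2), a factor tied to defence and senescence in Arabidopsis, went from 70.6, 135 and 52.2 CPM to 6.28, 6.93 and 4.25 CPM (adjusted p = 0.000973). NAC047 (DN36787_c1_g2) fell from 19.5, 39.1 and 6.3 CPM to 0.966, 0.478 and 0.263 CPM. Of 50 NAC genes 5 fell and none rose (median -0.26), and of 54 WRKY genes 5 fell and none rose (median -0.45). NAC48 (DN52010_c1_g3), 1 of the 10 highest genes, had means of 2315 and 2180 CPM and no call (adjusted p = 0.949).

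Among genes of the clock and light sensing 4 of 59 rose and none fell (median 0.22). The morning factor CCA1 (DN36058_c1_g3) had 7.79, 8.89 and 9.11 CPM at 6 °C and 15.6, 18.7 and 20.3 CPM at 4 °C (adjusted p = 0.0134). PRR95 (DN51247_c0_g1), a clock repressor of daytime, rose from 18.9, 18.1 and 25.1 CPM to 42.6, 62.3 and 71.5 CPM (adjusted p = 0.0132). The labels give no time of day for the sampling, so its part in these values was not tested.

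Receptors and calcium genes moved both ways. Of 209 lectin, wall-associated and cysteine-rich receptor kinases 17 fell and 1 rose (median -0.45); the rise was WAK3 (DN49646_c1_g1), from a mean of 6.49 to 24.9 CPM. Of 240 calcium genes 9 rose and 7 fell (median 0.01). The rises included 5 glutamate receptor channel genes, and GLR2.9 (DN50671_c0_g1) had 2.43, 2.15 and 2.15 CPM at 6 °C and 8.09, 24.5 and 12.3 CPM at 4 °C (log2 fold change 2.74 ± 0.61, adjusted p = 0.0204). The falls included CNGC2 (DN41545_c0_g1), a cyclic nucleotide-gated channel, with 420, 393 and 287 CPM at 6 °C and 99.6, 87.4 and 98.2 CPM at 4 °C (adjusted p = 0.00133). A calmodulin row among the 9 rises is named after a bird and was at 0 in all libraries at 6 °C.

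Calls among surface genes were falls, and wall lists held few calls. Of 103 cuticle, wax and suberin genes 9 fell and none rose (median -0.42), and At1g71691 (DN52276_c0_g2), a GDSL esterase or lipase, had 84.4, 53.2 and 40 CPM at 6 °C and 1.75, 1.87 and 1.67 CPM at 4 °C (log2 fold change -5.06 ± 0.99, adjusted p = 0.0103). Of 131 genes of wall loosening and pectin 2 fell and none rose (1.53% lower, under the background of 2.51%), and of 143 genes for cellulose, callose and other wall polymers 1 rose and 1 fell. PER12 (DN55087_c0_g2), a peroxidase of the cell wall, fell from 311, 378 and 189 CPM to 93.7, 70.6 and 59.9 CPM. Among 52 flavonoid genes 2 fell and none rose (median -0.61), of which CYP75B1 (DN47644_c0_g1), which adds a hydroxyl group to flavonoids, fell from a mean of 41.4 to 15 CPM. Of 294 defence genes, chitinases and glucanases among them, 11 fell and 1 rose (median -0.17).

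**Figure D4:**
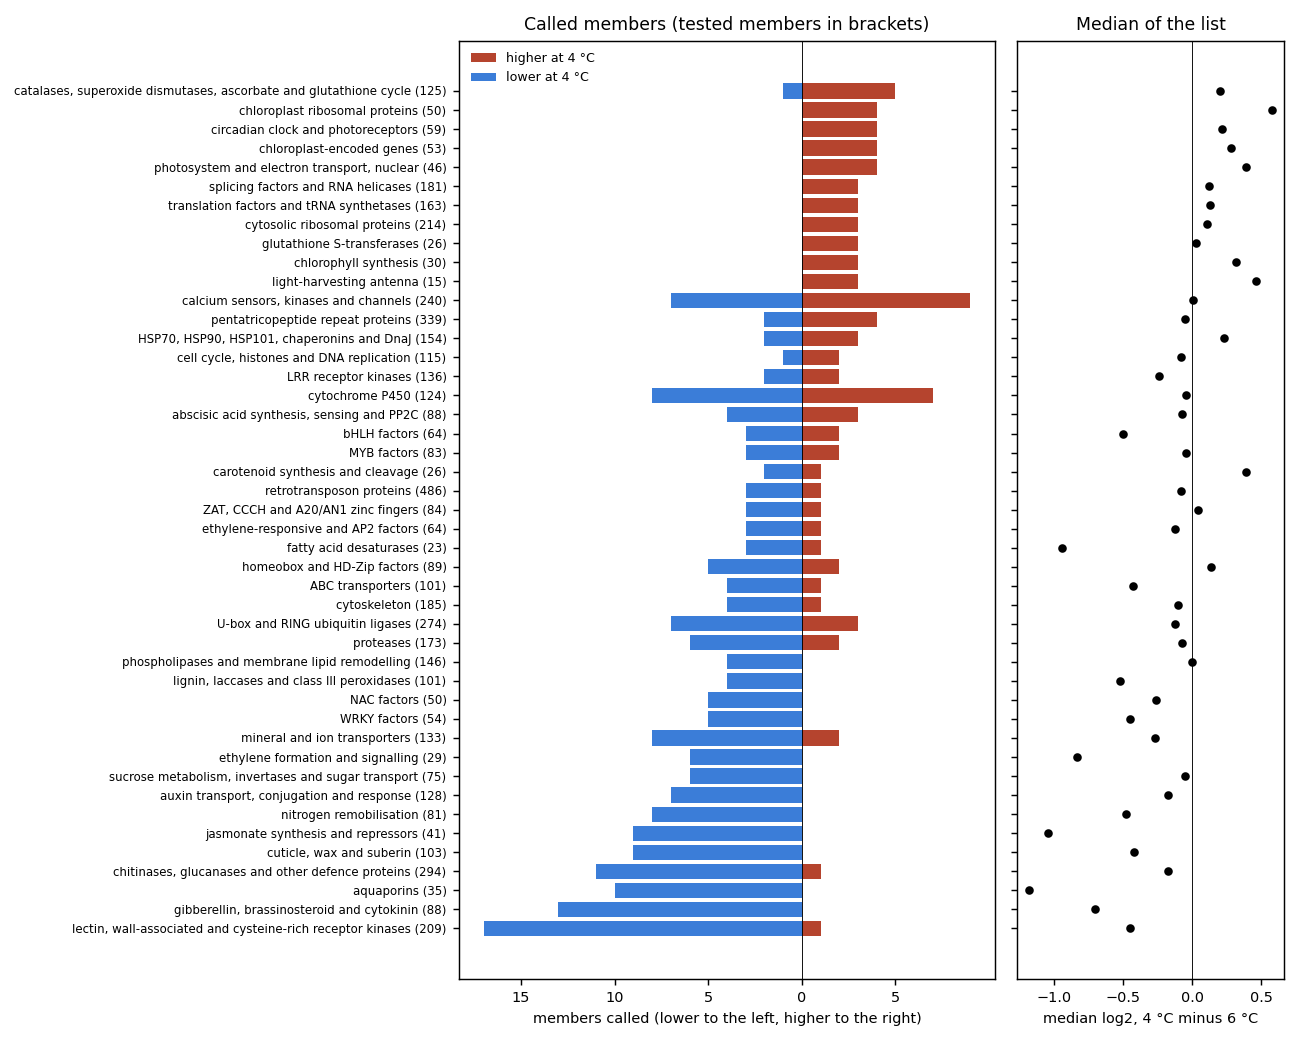
Left, the number of called members lower (bars to the left) and higher (bars to the right) at 4 °C than at 6 °C in Oregon, for each list with 3 or more calls, with the tested members in brackets. Right, the median log2 fold change of each list's tested members. Chloroplast lists hold rises alone, and the lists of aquaporins, jasmonate and growth hormones hold falls alone.

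The largest rise of any gene with at least 10 CPM in 1 group has no protein name and was chosen after its values were seen. DN47863_c4_g3 had 0, 0.0566 and 0.0477 CPM at 6 °C and 667, 516 and 750 CPM at 4 °C. Counts at 6 °C were so few that the ratio, 17552-fold, has a 95% counting interval of 4859 to 144937. In Oregon at 25 °C its mean was 92.1 CPM, and in Fantasy love its means were 0.11 CPM at 6 °C and 0.0316 CPM at 4 °C. At 25 °C its Fantasy love mean was 0.0185 CPM, so it was near 0 in that cultivar at all 3 temperatures and in Oregon at 6 °C.

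The same step was measured in Fantasy love, and the difference between the cultivars was tested as an interaction. Of all genes tested, 1347 (2.65%) had a step more positive in Oregon and 479 (0.941%) a step more negative, 3.59% in all. Among genes with a protein name the shares were 5.53% and 1.5%, or 7.03% in all. The counts depend on the Fantasy love libraries at 6 °C: they were 2899 and 1650 without its replicate 3, and 2394 and 903 without its replicate 1. Without any 1 of the other 10 cold libraries they were 653 to 1503 and 129 to 545. The 25 °C libraries were not left out in turn. Values of the 2 cultivars are given side by side, since the difference uses the same Oregon libraries as the step.

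By the share of members with a called difference, the antenna list was the highest of all lists. Of 15 tested, 13 had a step more positive in Oregon, with a median of 0.46 in Oregon against -2.79 in Fantasy love. The chlorophyll a-b binding protein DN41671_c0_g4 had 73, 69.9 and 154 CPM at 6 °C and 22.7, 25.2 and 32.6 CPM at 4 °C in Fantasy love, a fall where Oregon rose, and the difference was 3.78 ± 0.39 (SE; log2; adjusted p = 6e-05). At 6 °C its Fantasy love libraries lay above those of Oregon, and at 4 °C below. Of the chloroplast ribosomal proteins 14 of 50 differed in the same direction, with medians of 0.58 and -0.39. So did 21 of 46 nuclear photosystem and electron transport genes, with medians of 0.39 and -0.88. Of the CBF, DREB and ICE1 genes, none of them called in the Oregon step, 4 of 9 also differed in that direction, with medians of -0.31 and -1.19. Of the cuticle genes 32 of 103 had a step more positive in Oregon and none more negative, with medians of -0.42 and -3.04.

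HTH (DN53354_c0_g1), the cuticle gene HOTHEAD of Arabidopsis, shows this: it fell from 48.3, 40.8 and 22.4 CPM to 8.21, 7.45 and 14.1 CPM in Oregon. In Fantasy love it fell from 63.8, 64 and 173 CPM to 1.18, 0.747 and 0.832 CPM, and the difference was 4.85 ± 0.70 (adjusted p = 0.00116). LAX3 (DN42557_c0_g2), an auxin importer, fell from a mean of 9.93 to 3.86 CPM in Oregon and from 24.2 to 0.351 CPM in Fantasy love (difference 4.74 ± 0.56, adjusted p = 0.000192). For both genes the cultivars fell together and by different amounts.

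Other genes fell in Oregon without falling in Fantasy love. TIP1-1 (DN47635_c1_g6), a vacuolar aquaporin, had 11.1, 33 and 11.9 CPM at 6 °C and 2.53, 0.558 and 0.438 CPM at 4 °C in Oregon. In Fantasy love it went from 10.7, 3.51 and 4.46 CPM to 47.2, 19.8 and 22.6 CPM, and the difference was -6.29 ± 1.05 (adjusted p = 0.00367). For NAC047 the Fantasy love libraries had 2.42, 2.4 and 2.31 CPM at 6 °C and 6.79, 4.32 and 6.28 CPM at 4 °C (difference -6.56 ± 0.95, adjusted p = 0.00125). NAC029 stayed at 49.2, 55.5 and 69.4 CPM and 50.8, 44 and 52.5 CPM there (difference -2.99 ± 0.31, adjusted p = 5.61e-05). STP13 (DN57281_c1_g1) had means of 277 CPM at 6 °C and 589 CPM at 4 °C in Fantasy love, a difference of -3.20 ± 0.70 (adjusted p = 0.0167). In the growth hormone list 8 of 88 genes had a step more negative in Oregon and 2 more positive.

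The jasmonate list held 1 difference among its 41 genes, with medians of -1.04 in Oregon and -0.96 in Fantasy love. For AOC the difference was -1.65 ± 0.68 (adjusted p = 0.192), and for LOX3.1 it was -1.65 ± 0.54 (adjusted p = 0.0973). Among the aquaporins 3 differed upward and 2 downward, with medians of -1.18 and -2.22, and for TIP2-1 the difference was 0.47 ± 0.39 (adjusted p = 0.566). A p above the threshold does not show that the cultivars acted alike.

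**Figure D5:**
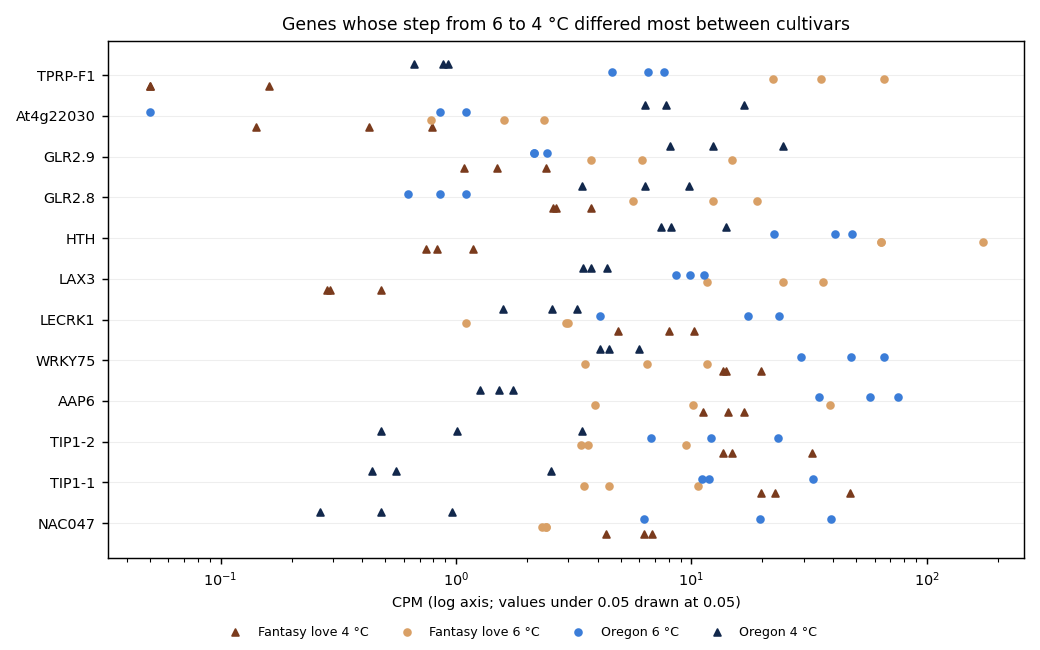
Levels in CPM on a log axis in each cold library of both cultivars for 12 named genes called in the Oregon step and in the difference. They had the largest differences, upward or downward, among such genes with a protein name and at least 10 CPM in 1 cold group. For NAC047, TIP1-1, TIP1-2 and WRKY75 the 4 °C libraries of Fantasy love lie above its 6 °C libraries and those of Oregon lie below.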

How the data were processed

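The authors deposited 1 table with estimated counts and TPM (abundance scaled to length and depth) per library, and the Length of each row. Reads were trimmed with cutadapt 1.9, per the submitters' processing notes; for the assembler, the counting tool and its settings, the sources used here give nothing. The deposited TPM values served no test. Of the deposited counts 4.21% had decimals and were rounded. The 6 Oregon cold libraries held 16049383 to 21911024 counts.

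With edgeR 4.0.16 in R 4.3.3, rows passing filterByExpr (minimum count 10, minimum total 15) received TMM scaling, and all 18 libraries entered 1 quasi-likelihood fit with a mean for each of 6 groups (51670 rows). SEs were obtained from the fitted change and its F statistic, as |log2 change| over root F. Mammal-named rows were left out of counts after the adjustment. Gene lists (71) were made from words in protein names, trimmed of chance matches after the files were seen. Members and lists were chosen with earlier results of these data known. Named genes were the 14 largest rises and falls, the best call of each list per direction and the 6 largest differences each way. These had at least 10 CPM in 1 group. The 10 highest genes and rows with 0 counts in 1 group were named as well. Other called list members were picked after their values were seen. Ratios with 1 to 3 counts carry a 95% exact interval and cover counting error only. On simulated data (47387 genes) 1.49% of the 2-fold changes were recovered, against 31.3% at 4-fold and 86.4% at 16-fold, and 4 unchanged genes were called. Alternatives were other size factors (DESeq2 1.42.0), its Wald test, quantile scaling with limma 3.58.1, other filters, a replicate block, only the groups compared, and leaving out in turn each of the 12 cold libraries for the difference, and the 6 Oregon cold libraries and 1 of Fantasy love at 6 °C for the step.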

Additional observations from a re-analysis of the deposited data

Results flagged for a closer look

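The step from 6 to 4 °C differed between the cultivars for 50 of the named genes, by the interaction test of edgeR with an adjusted p below 0.05 and an absolute difference of at least 1 on the log2 scale. Each value is the log2 fold change in Oregon minus that in Fantasy love. Among the steps more positive in Oregon, the largest differences were 15.56 for the row without a protein name (DN47863_c4_g3), 6.29 for TPRP-F1 (DN37501_c3_g1), 5.73 for At4g22030 (DN37286_c0_g4), 5.05 for GLR2.9 (DN50671_c0_g1), 4.96 for GLR2.8 (DN56023_c0_g1), 4.85 for HTH (DN53354_c0_g1), 4.74 for LAX3 (DN42557_c0_g2), 3.78 for a chlorophyll a-b binding protein (DN41671_c0_g4) and 3.68 for ERF2 (DN45138_c0_g5). Next came 3.20 for GUN4 (DN45010_c1_g4), 3.02 for WAK3 (DN49646_c1_g1), 2.76 for CLH2 (DN54755_c2_g4), 2.63 for CRR7 (DN39234_c1_g4), 2.60 for CA2 (DN39799_c0_g3), 2.51 for RPS12 (DN41792_c0_g1), 2.36 for GLR2.8 (DN49207_c1_g3), 2.31 for CSLH2 (DN57125_c2_g1) and 2.22 for HOX32 (DN56499_c0_g1). The others above 0 were 2.18 for ABCB2 (DN53808_c0_g2), 1.79 for MYB1 (DN36231_c3_g3), 1.66 for PSBP (DN35016_c0_g4), 1.65 for CHLI (DN32511_c0_g1), 1.52 for psbB (DN49269_c2_g5), 1.33 for APX8 (DN38778_c3_g1), 1.10 for RPL15 (DN36174_c0_g1) and 1.04 for ADG2 (DN50321_c0_g1). Among the steps more negative in Oregon, the largest differences were -9.10 for AATL1 (DN39557_c0_g2), -6.96 for At3g28580 (DN37070_c0_g1), -6.56 for NAC047 (DN36787_c1_g2), -6.29 for TIP1-1 (DN47635_c1_g6), -5.01 for TIP1-2 (DN32711_c1_g2), -4.86 for AAP6 (DN52481_c0_g2), -4.43 for WRKY75 (DN52983_c0_g3), -4.34 for LECRK1 (DN56679_c1_g2) and -4.14 for WRKY71 (DN39870_c0_g3). Values closer to 0 were -4.10 for AAP6 (DN54662_c0_g4), -3.89 for NPF6.2 (DN47133_c1_g2), -3.47 for NCED (DN38179_c0_g1), -3.12 for NCED (DN43607_c1_g4), -3.04 for APF2 (DN32313_c1_g3), -2.99 for NAC029 (DN53939_c0_g2), -2.83 for WRKY6 (DN39331_c0_g2), -2.57 for At1g02420 (DN44791_c0_g2) and -2.07 for TPS5 (DN44799_c1_g5). The remaining ones were -1.90 for CYP90B1 (DN43481_c1_g2), -1.75 for EBF1 (DN54700_c2_g2), -1.65 for D8 (DN41075_c0_g3), -1.39 for HAT22 (DN45953_c0_g3), -1.27 for At1g56130 (DN52356_c0_g2) and -1.21 for LECRK42 (DN49454_c1_g5). Of the 50 differences 31 kept the call in each of the 12 fits without 1 cold library and 19 lost it in at least 1: At1g56130 in 11, LECRK42 in 10, the NCED rows DN43607_c1_g4 and DN38179_c0_g1 in 10 and 9, and ADG2, HAT22 and GLR2.8 (DN49207_c1_g3) in 8 each. With only the groups compared in the fit, 17 lost it. The values for the row without a protein name, TPRP-F1, At3g28580 and AATL1 rest on groups with few or no counts, so they depend on the prior count and are no measure of size.

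Rows named after animals carried signal outside the comparison. Those named after the 4 mammals of the rule took a mean of 2.8% of counts in Oregon at 4 °C, above the 1.8% at 25 °C, and 2.99% in Fantasy love at 4 °C. Those named after other vertebrates and animal viruses took a mean of 1% at 4 °C and 0.802% at 25 °C in Oregon.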

How the results depend on the processing

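Counts of calls in the step were 717 higher and 1408 lower with DESeq2's Wald test, 841 and 1244 with quantile scaling and limma, and 1157 and 2453 with only the 6 Oregon cold libraries in the fit, where 37775 genes were tested. Without the minimum fold change 601 genes were higher. For the difference between the cultivars, the counts above and below 0 were 2498 and 1310 with the Wald test, and 578 and 208 with only the groups compared. Quantile scaling gave 1252 below 0. The cause of these shifts was not tested. Leaving out 1 library gave 71 to 721 genes higher and 109 to 1417 lower in the step, and 653 to 2899 above 0 and 129 to 1650 below 0 in the difference. The step calls lost among 115 named genes, counting those with no call as unchanged, were 68 without Oregon replicate 3 at 4 °C, 56 without replicate 2 at 6 °C, 50 without replicate 1 at 6 °C, 40 without replicate 2 at 4 °C, 23 without replicate 3 at 6 °C and 21 without replicate 1 at 4 °C. DESeq2's size factors, both other filters on low counts, dropping mammal-named rows before the fit and leaving out rows named after other animals or Citrus, the last chosen after seeing the data, kept the step counts within 1.5 times. Calls higher at 4 °C were 36.4% of all calls, and 46% without the minimum fold change. No called result changed direction under the alternatives run. Among the named genes without a call, the step of ART2, DNAJ1, ANJ1, NAC48, TUR2 and ycf68-1 crossed 0 in at least 1 alternative, with values of -0.11 to 0.13 after crossing. Under quantile scaling the step of RBCS (DN57201_c1_g3) was 0.00 in place of 0.73, and that of TUR2 (DN57020_c2_g1) -0.49 in place of -0.12. Same-numbered libraries at 6 and 4 °C had residuals correlated at 0.067, -0.009 and 0.084, and differently numbered ones at -0.114 to 0.054. So few pairs cannot show whether same-numbered libraries share a run, and the main fit used no pairing. With a replicate block 322 genes were higher and 599 lower, and the difference held 949 and 360. On the simulated data 1.49% of the 2-fold changes were recovered, and 31.3% of the 4-fold ones. A 2-fold change lies at the minimum that the call rule itself required. The part of depth and replication in these shares was not tested.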

Other observations

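Of 100 tested UDP-glycosyltransferases, which attach sugars to small molecules, none was called, with a median log2 fold change of 0.00. None of 80 proteasome genes and none of 23 autophagy genes was called either, by edgeR's quasi-likelihood test, with medians of 0.10 and -0.04. DESeq2's Wald test called 2 of the glycosyltransferases higher and 1 lower, and 0 of the genes of the other two lists. Of 274 U-box and RING ubiquitin ligases 3 were called higher and 7 lower (1.09% and 2.55%). Of 173 proteases 2 were called higher and 6 lower (1.16% and 3.47%). These shares lie near the background among named genes, 1.5% higher and 2.51% lower. Cytochrome P450 genes, enzymes of hormones and defence compounds, were called in both directions, 7 higher and 8 lower of 124. The brassinosteroid enzyme CYP90B1 (DN43481_c1_g2) fell from 33.7, 57.1 and 44.1 CPM at 6 °C to 16.7, 16.8 and 11.8 CPM at 4 °C (adjusted p = 0.00277). Another brassinosteroid enzyme, CYP85A1 (DN34041_c1_g2), rose from a mean of 41.3 to 111 CPM.

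In starch metabolism 2 of 51 genes rose and none fell. ADG2 (DN50321_c0_g1), a subunit of the enzyme that makes the sugar donor of starch, had 42.1, 34.6 and 32.9 CPM at 6 °C and 123, 95.4 and 109 CPM at 4 °C (log2 fold change 1.58 ± 0.20, adjusted p = 0.000679). CAPH2 (DN44331_c0_g1), a condensin subunit that packs chromosomes, had 8.58, 8.89 and 8.39 CPM at 6 °C and 35.2, 36.6 and 49.7 CPM at 4 °C (adjusted p = 0.00653). In Fantasy love its means were 18.9 and 143 CPM.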
